A study of Homo sapiens with 2 samples.

Results

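Transcripts of 42 genes of the cell cycle and of DNA replication were compared between live and processed Stage 6 cells. The genes were taken by name, not by their values, and comprise cyclins, cyclin-dependent kinases (CDKs), replication factors, mitotic kinases and parts of the spindle and kinetochore. All 42 were found among the 55797 genes listed for each library, each in a single row. Both libraries came from H1, a widely used line of human embryonic stem cells, grown on matrigel and differentiated through a stepwise pancreatic protocol to Stage 6, where some of the cells express insulin, and the culture was split into a live and a processed sample. The live sample was neither fixed nor sorted, and its RNA was isolated with RNeasy. The processed sample went through MARIS, that is, fixation in 4% paraformaldehyde, permeabilization, antibody staining and a sort in which every cell was kept, and its RNA was isolated with a modified RecoverAll kit. The comparison asks whether this treatment changes how transcripts are represented. Fixation, staining, sorting and the kit changed together and cannot be told apart, and with 1 library per condition no difference has a replicate check or a p-value.

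The cell cycle is driven by CDKs whose cyclin partners come and go. D cyclins with CDK4 and CDK6 begin G1 phase and free the E2F factors from the retinoblastoma protein, cyclin E with CDK2 brings cells into S phase, and cyclin A and cyclin B with CDK1 carry them through G2 phase into mitosis. Origins of replication are licensed in G1 phase, when CDC6 and CDT1 load the ring of MCM2 to MCM7, and the spindle checkpoint later holds back the anaphase-promoting complex (APC/C) until chromosomes are attached. In the pancreas, progenitors divide, whereas hormone-expressing endocrine cells have mostly left the cycle.

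Levels are in FPKM, fragments per length of transcript scaled to sequencing depth, as deposited, each with the lower and upper bound that the authors' files give. The bounds describe the precision of 1 gene in 1 library, and their level is not stated. Changes are given as the log2 ratio, log2((processed FPKM + 1) / (live FPKM + 1)). The added 1 FPKM makes differences of low genes look smaller. FPKM values summed to 510713 in the live and 499398 in the processed library. The steps between low values put the depth at about 99800000 fragments in the live library and 93100000 fragments in the processed library. The median log2 ratio over the 17326 genes that reached 1 FPKM in a library was -0.09, so a gene at this value moved as the typical gene did. Of the cell type markers, the islet hormones INS, GCG and SST were present in both libraries, with INS at 98.3 and 121 FPKM, GCG at 135 and 131 and SST at 243 and 266 in live and processed cells. PPY was listed at 0 in both, and IAPP had 0.759 FPKM in live cells and was listed at 0 in processed cells.

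The promoters of these genes carry some of the sequence elements that are known to time their transcription. They are shown for 5 genes, picked with their values known: KIF23 and CENPA, which share elements and moved furthest apart among the mitotic genes, PLK1, which hardly moved, and E2F1 and MCM6, which act in G1 and S phase and were lower in processed cells. Capitals mark the E2F letters TTTCGCGC, TTTGGCGC, TTTCCCGC and TTTGCCGC, the cell cycle homology region (CHR) letters TTTGAA and TTCGAA, and the CCAAT box CCAAT, on either strand. Each run is the 150 bases before the transcription start, 5′ to 3′ on the gene's strand, from RefSeq on GRCh38.p14, whereas gene positions elsewhere in the text are on GRCh37/hg19.
KIF23 (chr15:69414199-69414348, plus strand): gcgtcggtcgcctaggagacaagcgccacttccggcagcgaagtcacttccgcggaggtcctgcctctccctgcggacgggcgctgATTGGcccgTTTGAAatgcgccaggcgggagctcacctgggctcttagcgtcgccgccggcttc
CENPA (chr2:26785906-26786055, plus strand): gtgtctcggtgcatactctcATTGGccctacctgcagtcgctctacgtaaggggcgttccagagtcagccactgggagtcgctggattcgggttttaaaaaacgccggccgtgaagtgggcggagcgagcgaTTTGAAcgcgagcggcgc
PLK1 (chr16:23678739-23678888, plus strand): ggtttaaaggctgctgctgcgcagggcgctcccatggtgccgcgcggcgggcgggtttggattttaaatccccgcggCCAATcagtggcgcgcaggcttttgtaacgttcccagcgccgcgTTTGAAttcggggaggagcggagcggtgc
E2F1 (chr20:33686386-33686535, minus strand): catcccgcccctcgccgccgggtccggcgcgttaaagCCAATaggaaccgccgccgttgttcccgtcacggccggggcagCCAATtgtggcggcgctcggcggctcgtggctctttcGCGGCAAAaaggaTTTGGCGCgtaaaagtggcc
MCM6 (chr2:135876444-135876593, minus strand): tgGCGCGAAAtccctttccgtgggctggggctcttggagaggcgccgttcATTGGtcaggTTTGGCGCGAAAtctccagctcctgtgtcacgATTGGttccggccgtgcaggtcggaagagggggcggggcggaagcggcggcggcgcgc
In KIF23 a CCAAT box (bases 64 to 60 before the start) stands beside a CHR (bases 55 to 50). PLK1 and CENPA also hold both elements, PLK1 at bases 73 to 69 and 29 to 24, and CENPA at bases 130 to 126 and 18 to 13. E2F1 holds E2F letters at bases 33 to 26 and 20 to 13. MCM6 holds them at bases 148 to 141, and at bases 90 to 83 and 86 to 79, which overlap each other. Both also hold CCAAT boxes, E2F1 at bases 113 to 109 and 70 to 66, and MCM6 at bases 100 to 96 and 58 to 54. Within 250 bases before the start, MCM6 was also counted with a CHR and CENPA with E2F letters. Matches are descriptions of letters and not of bound factors.

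A promoter was found for 32 of the 42 genes, and CCND1, CCND2, CCNE2, CDK2, MCM4, MCM5, AURKA, UBE2C, TPX2 and BIRC5 had none in the table. Within the 250 bases before the start, 12 of the 32 held a CHR (37.5%, against 17.2% of the 27305 genes in the table), 24 a CCAAT box (75% against 37%) and 10 E2F letters (31.3% against 3.40%). A gene was counted where any of its listed promoters held the letters. These shares belong to the genes chosen and do not depend on the libraries. Genes with and without an element overlapped in their log2 ratios. The median log2 ratio was -0.12 in the 12 genes with a CHR and -0.10 in the 20 without, and the former spanned -0.98 for CENPA to 0.73 for KIF23. It was -0.16 in the 10 genes with E2F letters and -0.04 in the 22 without, and -0.08 in the 24 genes with a CCAAT box and -0.29 in the 8 without.

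All 42 genes were expressed in both libraries, and most at intermediate levels. In live cells 36 lay between 10 and 100 FPKM, and the median was 30.4 FPKM, against 29.9 in processed cells. The 42 genes took 0.303% of the summed FPKM of the live library and 0.304% of that of the processed library. In live cells the lowest, CCNE2, stood above 77.1% of the 55797 listed genes, of which 26176 were listed at 0. It was below the median of the 17326 expressed genes. The highest was CDK4, the kinase partner of D cyclins, at 117 FPKM (bounds 115 to 119) in live and 121 FPKM (118 to 124) in processed cells. MCM7, a subunit of the replicative helicase, followed at 108 (106 to 110) and 102 FPKM (98.8 to 105). These were the top pair in both libraries. Next in live cells were CCND1, at 92.3 FPKM, and the sliding clamp PCNA, at 91.0 FPKM, whose bounds overlapped, then MCM4 at 71.7 FPKM and the thymidylate synthase TYMS at 65.8 FPKM. The 6 lowest in live cells were CCNE2 (2.92 FPKM), CCND3 (4.44), the kinetochore motor CENPE (5.25), CCNE1 (5.87), MKI67 (12.2) and CDK6 (12.7). Of the 41 pairs of neighbours in the live order, 28 had overlapping bounds, so that much of the middle of the order is not resolved. Across the 42 genes, log2 FPKM in the libraries had a Pearson r of 0.93 and a Spearman rho of 0.95, a description over genes that share both libraries.

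**Figure D1:**
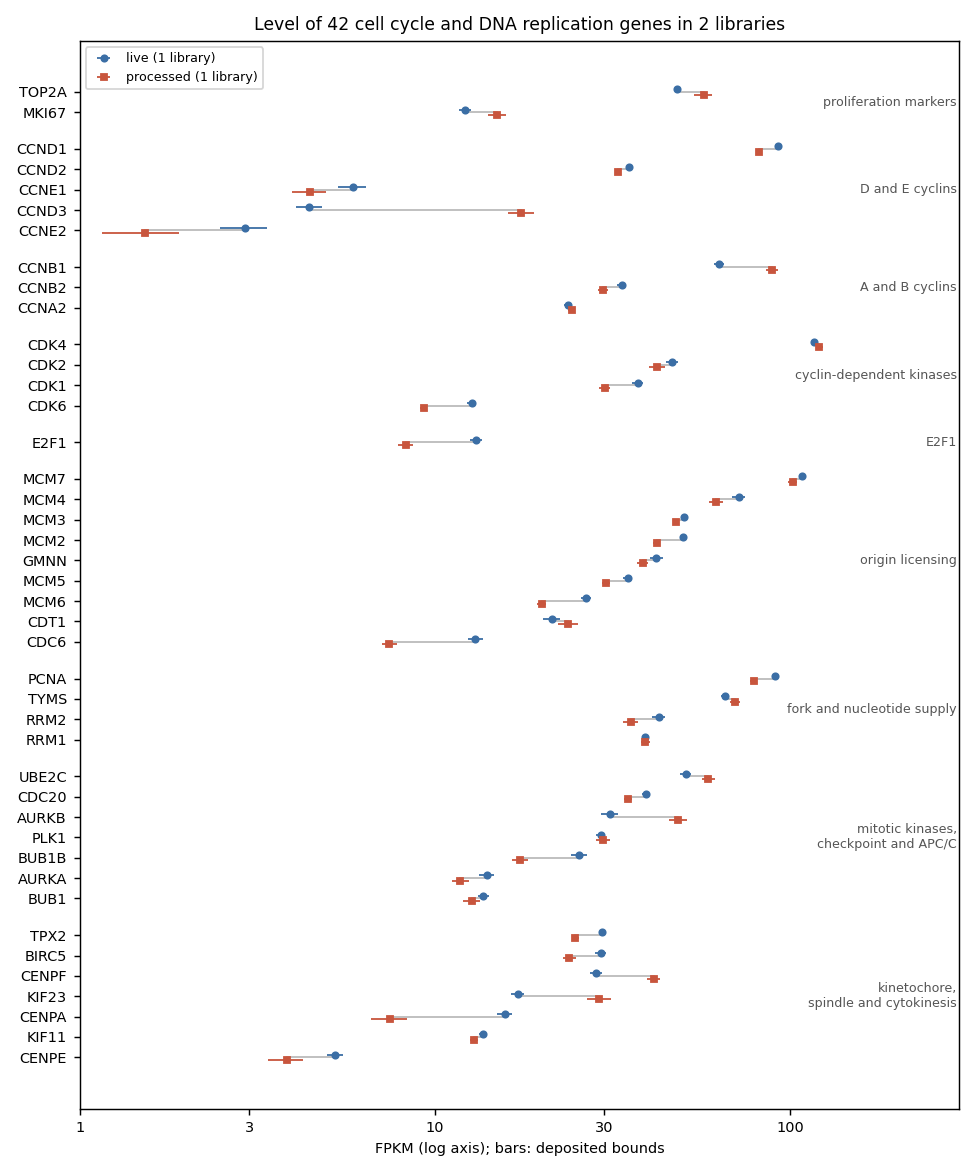
FPKM (log axis) of the 42 genes in the live library (circles) and the processed library (squares), grouped by role, with the deposited bounds as bars and a grey line joining the libraries. Most pairs of points lie close together; CCND3, at 4.44 and 17.5 FPKM, spans the longest line.

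Between the libraries the genes moved little as a set, and a few moved far. Their median log2 ratio was -0.15 (lowest -0.98, highest 1.77), against -0.09 over the 17326 genes and -0.10 over the 13155 genes whose mean FPKM fell in the range of the 42. A ratio beyond 1.5-fold was reached by 3 genes that were higher in processed cells, CCND3, KIF23 and AURKB, which is 7.14% of the 42, where 13.1% of the 17326 genes did so. It was reached by 4 that were lower, CENPA, CDC6, CCNE2 and E2F1, which is 9.52% of the 42 against 15.6%. Past 2-fold there was 1 higher gene, CCND3, against 6.57% of all genes, and 0 lower ones, against 6.19%. Both shares past 1.5-fold were below those of all genes, and among the 13155 genes of like level they were 10.1% higher and 12.2% lower. Among protein-coding genes that reached 1 FPKM they were 8.41% and 13.1%. The counts of 3 and 4 genes are small, and the difference in shares was not tested. Division of processed FPKM by its median ratio to live FPKM raised the processed values by 0.10 on the log2 scale. Because of the added 1 FPKM, log2 ratios of low genes moved by less, for CCNE2 from -0.63 to -0.57. The division gave 5 higher genes past 1.5-fold (CCNB1 and CENPF were added, 11.9% against 15.6% of all genes). It gave 2 lower ones (E2F1 and CCNE2 were lost, 4.76% against 12.8%). In bulk RNA, fewer cells of a type and less RNA per cell cannot be told apart.

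Most differences were small but larger than the deposited bounds allow for. Bounds were separate between libraries for 36 of the 42 genes, 9 of them higher and 27 lower in processed cells (21.4% and 64.3%), where 28.1% of the 17326 genes were higher and 43.7% lower with separate bounds. After division by the median ratio the split was 14 higher and 17 lower among the 42 genes (33.3% and 40.5%) and 35.0% and 35.4% among all genes. This scaling multiplies every processed FPKM by the same factor. After it 25 of the 42 genes were still below 0, with a median log2 ratio of -0.05 against 0.00 for all genes. The 6 genes with overlapping bounds were RRM1, PLK1, CCNA2, CDK4, CDT1 and BUB1. RRM1, the large subunit of ribonucleotide reductase, had 39.2 FPKM in both libraries.

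**Figure D2:**
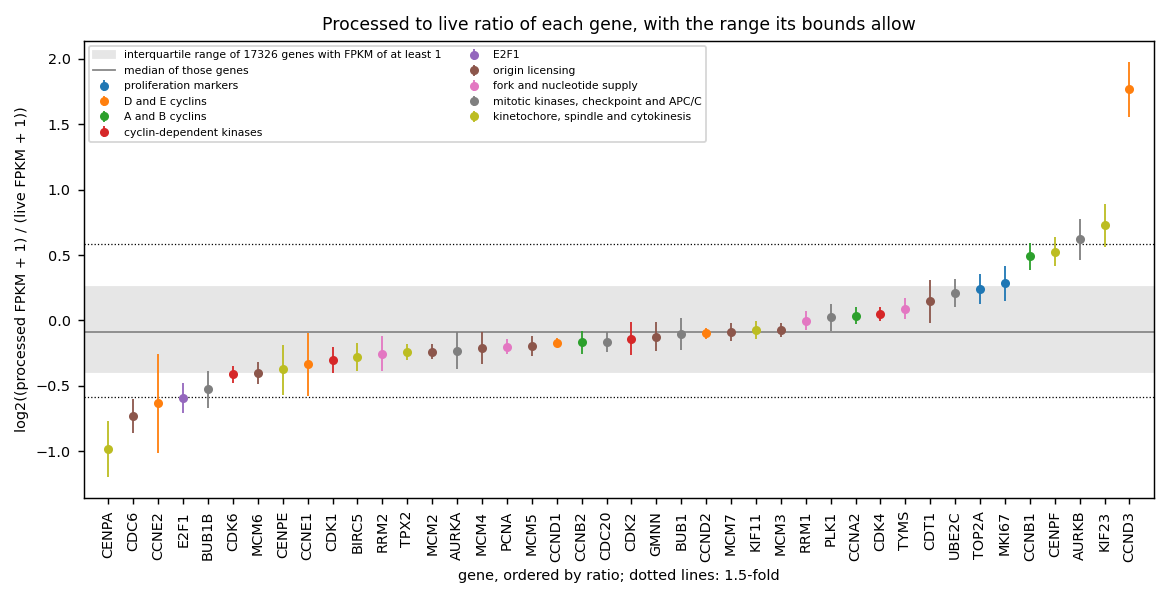
Log2 ratio of processed to live for each of the 42 genes in order, coloured by role, with bars for the range that the bounds of both libraries allow, the interquartile range of the 17326 expressed genes in grey and 1.5-fold as dotted lines. CCND3 at 1.77 stands apart at the top, CENPA at -0.98 is lowest, and 35 genes lie within 1.5-fold; KIF11, RRM1, MCM3 and MCM7 change sign when the processed values are divided by the median ratio.

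The cyclins of G1 phase showed the largest single difference. CCND3, which encodes cyclin D3 (ENSG00000112576.8, chromosome 6, 41902671 to 42018095, minus strand), had 4.44 FPKM (4.07 to 4.80) in live and 17.5 FPKM (16.1 to 19.0) in processed cells. The processed library was 3.96 times higher, and the bounds were far apart. CCND1 had 92.3 FPKM (91.1 to 93.5) in live and 81.9 FPKM (80.9 to 82.8) in processed cells, a log2 ratio of -0.17. CCND2 had 35.3 (34.7 to 35.8) and 32.9 FPKM (32.4 to 33.4), a log2 ratio of -0.10, close to that of the typical gene. The summed level of the 3 D cyclins was 132 FPKM in both libraries, and the share of CCND3 in it went from 3.36% to 13.3% while that of CCND1 went from 69.9% to 61.9%. CCND3 has 23 annotated transcripts in GENCODE release 44, and no gene that overlaps it reached 1 FPKM. How fragments were divided among its transcripts is not in the files analysed here, and its part in the difference was not tested.

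E cyclins, which activate CDK2 at the entry into S phase, were among the 6 lowest genes in live cells and were lower in processed cells. CCNE2 (ENSG00000175305.12, chromosome 8, 95891998 to 95908906, minus strand) had 2.92 FPKM (2.48 to 3.37) in live and 1.53 FPKM (1.16 to 1.91) in processed cells, a log2 ratio of -0.63 that was no longer past 1.5-fold after division by the median ratio. CCNE1 had 5.87 (5.36 to 6.39) and 4.45 FPKM (3.95 to 4.95), which gives -0.33. Separate bounds were found for both, though the range they allow for CCNE2 is wide, from -1.02 to -0.26. CCNE2 overlaps INTS8, which had 38.8 FPKM live and 24.0 FPKM processed, and NDUFAF6, with 7.54 and 11.3 FPKM, both annotated on the other strand. Reads from overlapping genes cannot be told apart where strand is not used, which the sources used here do not state.

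Of the cyclins of S phase and mitosis, CCNB1 was higher and the others were near the typical gene. CCNB1, cyclin B1, had 63.1 FPKM (61.0 to 65.2) in live and 89.1 FPKM (85.6 to 92.6) in processed cells, 1.41 times higher, and moved from place 7 to place 3 among the 42 genes. CCNB2 had 33.6 (32.5 to 34.6) and 29.8 FPKM (28.8 to 30.8), a log2 ratio of -0.17. CCNA2, cyclin A2, had 23.7 (23.1 to 24.3) and 24.3 FPKM (23.8 to 24.9), with overlapping bounds. The paired B cyclins thus moved in opposite directions. CDK1, the kinase that cyclin B activates, had 37.3 FPKM (36.0 to 38.6) in live and 30.1 FPKM (29.0 to 31.1) in processed cells, so that the CCNB1 to CDK1 ratio of FPKM went from 1.69 in live cells to 2.96 after processing.

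The other kinases differed in how far they moved. CDK2 had 46.6 FPKM (44.7 to 48.4) and 42.2 FPKM (40.1 to 44.4) in live and processed cells, a log2 ratio of -0.14, and CDK4 had a log2 ratio of 0.05. CDK6, the other partner of D cyclins, was the lowest of the kinases, with 12.7 (12.3 to 13.1) and 9.31 FPKM (9.12 to 9.50), a log2 ratio of -0.41 with separate bounds.

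E2F1, a transcription factor that switches on genes of S phase (ENSG00000101412.9, chromosome 20, 32263489 to 32274210, minus strand), had 13.1 FPKM (12.6 to 13.5) in live and 8.30 FPKM (7.89 to 8.71) in processed cells. Live cells were 1.57 times higher with separate bounds, but E2F1 was no longer past 1.5-fold when the libraries were scaled to the same FPKM sum or by the median ratio. E2F1 overlaps no other expressed gene and has 1 annotated transcript in GENCODE release 44. Its dimer partner TFDP1 was also lower, with 40.8 FPKM (39.5 to 42.2) and 24.7 FPKM (23.9 to 25.4), a log2 ratio of -0.71.

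Licensing factors were lower in processed cells in 8 of 9 genes, with a median log2 ratio of -0.20, where 58.3% of the 17326 genes had a ratio below 0. Bounds were separate for all 8, against 43.7% of all genes, of which MCM3 and MCM7 changed sign after division by the median ratio. CDC6, the loader of the MCM ring (ENSG00000094804.5, chromosome 17, 38443885 to 38459171, plus strand), had 13.0 FPKM (12.4 to 13.6) in live and 7.45 FPKM (7.08 to 7.81) in processed cells, 1.75 times higher in live cells. CDT1, which acts with CDC6, had 21.4 (20.2 to 22.6) and 23.8 FPKM (22.2 to 25.3), a log2 ratio of 0.15 with overlapping bounds. GMNN, geminin, the inhibitor of CDT1, had 42.1 (40.2 to 43.9) and 38.5 FPKM (37.2 to 39.8). The ratio of CDC6 to CDT1 went from 0.608 in live to 0.313 in processed cells, whereas that of CDT1 to GMNN was 0.509 and 0.617 with overlapping ranges.

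The MCM genes encode a ring with 1 copy of each subunit, but their transcripts were not equal. In live cells MCM7, the highest, was 4.06 times MCM6, the lowest, and in processed cells 5.09 times. MCM6 had 26.7 FPKM (25.9 to 27.6) in live and 19.98 FPKM (19.4 to 20.5) in processed cells, and with a log2 ratio of -0.40 it differed most among the subunits. MCM2 had 49.8 and 42.1 FPKM, MCM4 71.7 and 61.9, and MCM5 34.9 and 30.3, with log2 ratios from -0.24 to -0.20. MCM3, with 50.4 and 47.9 FPKM, and MCM7 had log2 ratios of -0.07 and -0.09, so that all 6 subunits were lower as deposited, but MCM3 (0.03) and MCM7 (0.01) turned to the other side of 0 when the processed values were divided by the median ratio. The sum over the subunits was 342 FPKM before and 304 FPKM after processing.

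**Figure D3:**
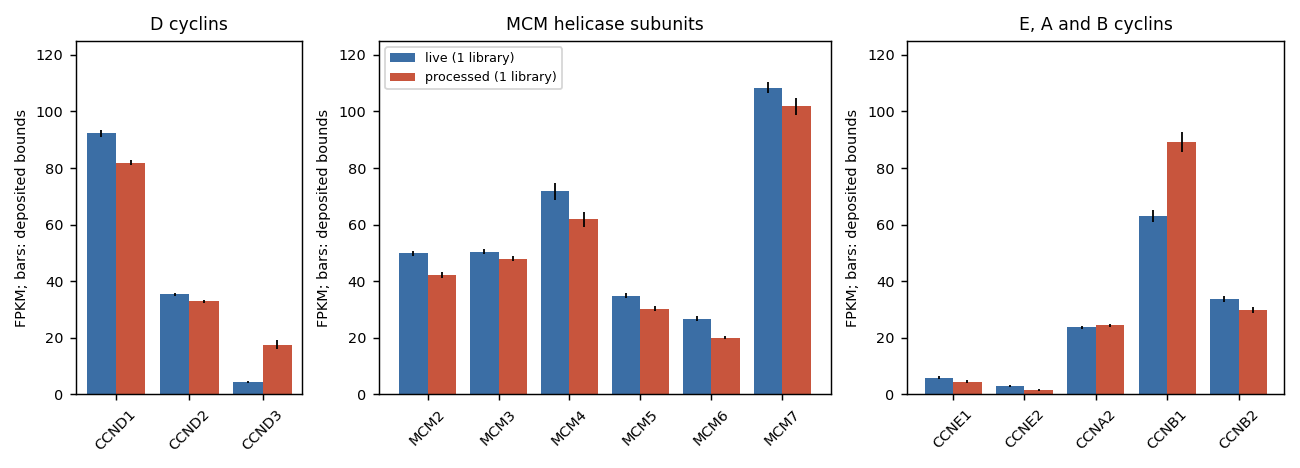
FPKM of the D cyclins, the MCM subunits and the E, A and B cyclins in the live and the processed library, as bars from 0 with the deposited bounds. CCND3 (4.44 and 17.5 FPKM) and CCNB1 (63.1 and 89.1 FPKM) are higher in processed cells, and the 6 MCM subunits are lower as deposited, with MCM3 and MCM7 changing sign after division by the median ratio.

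At the replication fork, PCNA had 91.0 FPKM (89.2 to 92.8) in live and 79.1 FPKM (77.4 to 80.8) in processed cells, a log2 ratio of -0.20. RRM2, the small subunit of ribonucleotide reductase, had 42.7 (40.8 to 44.5) and 35.6 FPKM (33.8 to 37.4), the lowest log2 ratio of this group at -0.25. TYMS, which makes thymidylate, had the highest at 0.09, with 65.8 (64.1 to 67.5) and 70.1 FPKM (68.0 to 72.3). ENOSF1, which overlaps TYMS on the other strand, had 24.1 and 31.5 FPKM. The 4 genes of this group thus stayed within a narrow range, whereas the order of the subunits of ribonucleotide reductase turned, with a ratio of RRM1 to RRM2 of 0.918 (0.861 to 0.981) in live cells and 1.10 (1.02 to 1.19) after processing.

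Genes of mitosis were split. Of the 20 genes that act in G2 phase and mitosis or mark dividing cells in general, 9 had a log2 ratio above 0 and 11 below, and the median was -0.09. MKI67 and TOP2A, the general markers, are counted among the 9. The grouping was made after values were seen. In the 22 genes of G1 and S phase 4 were above and 18 below, with a median of -0.18. As deposited, 55% of the mitotic genes and 81.8% of those of G1 and S phase were below 0, against 58.3% of the 17326 genes. Division by the median ratio moved RRM1, MCM3 and MCM7 of G1 and S phase and KIF11 of mitosis above 0. It left 25 of the 42 genes (59.5%) and 49.8% of all genes below 0. The summed FPKM of the G1 and S phase genes was 987 in live and 917 in processed cells, whereas that of the mitotic group was 561 and 603. The difference between these groups was not tested, since each rests on the same pair of libraries.

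The general markers of proliferation were both somewhat higher in processed cells. MKI67, the Ki-67 antigen (chromosome 10, 129894923 to 129924649), had 12.2 FPKM (11.7 to 12.6) in live and 15.01 FPKM (14.1 to 15.9) in processed cells. TOP2A, topoisomerase II alpha, had 48.2 (47.2 to 49.3) and 57.2 FPKM (53.9 to 60.5). Their log2 ratios were 0.28 and 0.24, with separate bounds, and neither reached 1.5-fold.

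AURKB, the kinase of the chromosomal passenger complex (ENSG00000178999.8, chromosome 17, 8108056 to 8113918, minus strand), had 31.2 FPKM (29.4 to 32.9) in live and 48.4 FPKM (45.7 to 51.1) in processed cells, 1.55 times higher. Its bounds allow log2 ratios from 0.46 to 0.78, which reach below 1.5-fold. BIRC5, survivin, of the same complex had 29.3 (28.2 to 30.4) and 23.9 FPKM (23.0 to 24.9), a log2 ratio of -0.28. The remaining subunits, named here after their values were seen, were also lower, INCENP with a log2 ratio of -0.31 and CDCA8 with -0.32. AURKB therefore stood apart from its partners, and its ratio to BIRC5 was 1.06 in live and 2.02 in processed cells. AURKA, the spindle pole kinase, and its activator TPX2 moved together, with log2 ratios of -0.23 and -0.24 and an FPKM ratio of 0.473 and 0.474.

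PLK1, the polo-like kinase, had 29.3 FPKM (28.4 to 30.2) and 29.8 FPKM (28.5 to 31.1). BUB1B, which encodes the checkpoint protein BUBR1, had 25.5 (24.2 to 26.8) and 17.4 FPKM (16.5 to 18.3), the lowest log2 ratio of the mitotic kinases and checkpoint genes at -0.53. It overlaps PAK6 on the same strand, which had 9.40 FPKM live and 3.89 FPKM processed. BUB1, its paralogue, had 13.7 and 12.7 FPKM with overlapping bounds. UBE2C, the ubiquitin-conjugating enzyme of the APC/C, had 50.9 (49.0 to 52.7) and 59.0 FPKM (56.6 to 61.3), whereas CDC20, its activator, had 39.4 (38.3 to 40.5) and 35.0 FPKM (34.0 to 36.0).

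The kinetochore and spindle genes held both ends of the mitotic range. KIF23, a kinesin of the central spindle needed for cytokinesis (ENSG00000137807.9, chromosome 15, 69706585 to 69740764, plus strand), had 17.1 FPKM (16.4 to 17.8) in live and 29.0 FPKM (26.8 to 31.3) in processed cells, 1.70 times higher. The range its bounds allow, 0.56 to 0.89 on the log2 scale, reaches just below 1.5-fold. RACGAP1, which forms a complex with KIF23 and is named here after its value was seen, had 23.1 and 16.2 FPKM, a log2 ratio of -0.49. CENPF, a large kinetochore protein, had 28.4 (27.3 to 29.5) and 41.4 FPKM (39.6 to 43.1), 1.46 times higher. CENPA, the centromeric form of histone H3 (ENSG00000115163.10, chromosome 2, 26987157 to 27023935, plus strand), had 15.7 FPKM (14.96 to 16.5) in live and 7.49 FPKM (6.63 to 8.35) in processed cells, 2.10 times higher in live cells by FPKM and -0.98 on the log2 scale with its pseudocount. HJURP, the chaperone that places CENPA at centromeres, went the other way, from 10.9 (10.3 to 11.5) to 19.6 FPKM (18.0 to 21.3). The CENPA to HJURP ratio was 1.44 in live and 0.381 in processed cells. CENPA overlaps C2orf18 on the same strand, which had 5.96 FPKM live and 5.14 FPKM processed, and the part of shared reads was not tested. CENPE had 5.25 (4.98 to 5.51) and 3.82 FPKM (3.39 to 4.26), and KIF11, the bipolar spindle kinesin, had 13.6 and 12.9 FPKM, a log2 ratio of -0.07 that became 0.02 after division by the median ratio.

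The wider pathway was read from 159 further cell cycle genes, of which 158 were found and 156 reached 1 FPKM in a library. Their median log2 ratio was -0.12, and -0.02 after division by the median ratio. The counts that follow are as deposited, and counts after that division are not given here. Past 1.5-fold, 3 were higher (1.92%, against 13.1% of all and 8.41% of protein-coding genes) and 13 lower (8.33%, against 15.6% and 13.1%). The higher ones were PKMYT1, an inhibitory kinase of CDK1, with 15.8 and 31.0 FPKM in live and processed cells, HJURP, and DBF4, the activator of the CDC7 kinase, with 12.2 and 21.1 FPKM. PRC1, a midzone protein, with 33.4 and 49.5 FPKM, and RPA3, of the single-strand binding complex, with 18.7 and 28.0 FPKM, came next.

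Apart from the CDK inhibitors, the lowest ratios were those of a pair of APC/C genes. ANAPC10, a core subunit, had 9.32 FPKM (8.77 to 9.86) in live and 3.08 FPKM (2.54 to 3.61) in processed cells, and FZR1, which activates the APC/C in G1 phase, had 22.7 (21.6 to 23.9) and 9.27 FPKM (8.81 to 9.72). The log2 ratios were -1.34 and -1.21. The 18 genes of the spindle checkpoint and APC/C list nevertheless had a median of -0.16, with 2 past 1.5-fold. MCM10, a replication factor of the fork, had 7.32 and 3.68 FPKM, and POLA2, a subunit of the priming polymerase, had 15.9 and 9.44 FPKM. By list, the medians ran from -0.28 for the 19 RB, E2F and related regulators to 0.04 for the 9 genes of entry into mitosis, with -0.19 for the 29 fork genes, -0.23 for 14 condensin and cohesin genes and -0.08 for 22 spindle and cytokinesis genes. Origin recognition and helicase activation (18 genes) stood at -0.10, and the kinetochore and passenger list (22 genes) at -0.15.

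**Figure D4:**
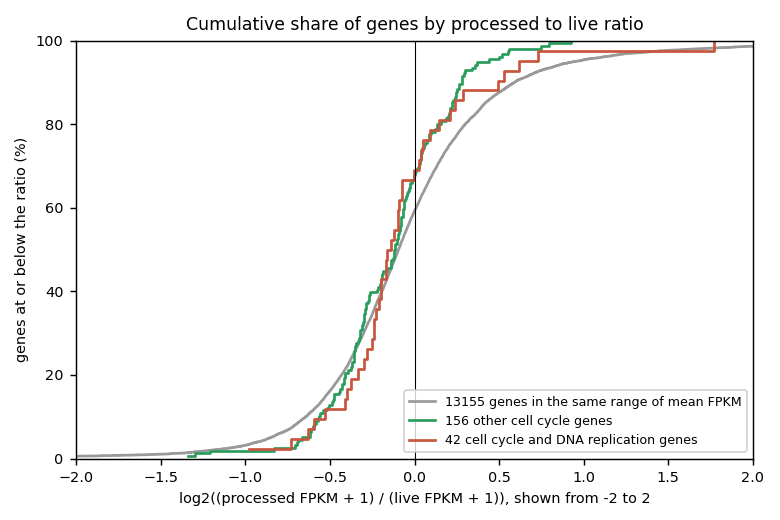
Cumulative share of genes (%) by log2 ratio of processed to live, for the 42 genes, the 156 other expressed cell cycle genes and the 13155 genes in the same range of mean FPKM. The medians are -0.15, -0.12 and -0.10, and 1 of the 42 genes, CCND3 at 1.77, lies far to the right.

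CDK inhibitors, which stop the cycle, differed in level by gene. CDKN1C, p57, was the highest, with 89.2 FPKM (87.2 to 91.2) in live and 107 FPKM (105 to 109) in processed cells. CDKN1B, p27, had 25.2 (24.5 to 25.9) and 23.4 FPKM (22.7 to 24.2). CDKN1A, p21, a target of p53, had 5.65 FPKM (5.19 to 6.11) and 1.70 FPKM (1.51 to 1.90), a log2 ratio of -1.30. Of the INK4 genes, CDKN2D had 3.10 and 3.80 FPKM with overlapping bounds and CDKN2B 2.31 and 1.52 FPKM, while CDKN2C, at 0.158 and 0.129 FPKM, stayed under 1. CDKN2A had 0.622 FPKM in live cells and was listed at 0 in processed cells.

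Markers of cell types that the culture could hold moved as follows, and their part in the values above was not tested. Of 8 markers of undifferentiated stem cells, 6 were lower (75%) and 2 higher in processed cells, where 58.3% of the 17326 genes were lower. The summed level of these markers went from 218 to 175 FPKM. LIN28A was their highest, at 119 and 88.7 FPKM. The 2 higher ones were POU5F1, with 7.92 and 8.53 FPKM, and NANOG, with 1.27 and 7.34 FPKM. The lowest log2 ratios were -1.41 for TDGF1 and -1.16 for ZFP42. The 6 markers of pancreatic progenitors summed to 241 and 231 FPKM, with SOX9 highest at 82.4 and 85.3 FPKM. Of these, 4 were lower (66.7%) and 2 higher, with log2 ratios from -0.81 for ONECUT1 to 0.11 for PDX1. The 9 islet markers summed to 2317 and 2312 FPKM, of which CHGA made 1794 and 1741 FPKM with deposited bounds of 0 to 4712 in processed cells, so that the sum is not resolved. Their log2 ratios, some named here after their values were seen, lay between -0.86 for CHGB and 0.42 for GHRL. The 9 mesenchymal markers summed to 613 and 578 FPKM, of which VIM made 514 and 485 FPKM. Of the 9, 6 were lower (66.7%) and 3 higher, with log2 ratios from -1.28 for PDGFRB to 1.37 for DCN. The 7 liver markers, led by SERPINA1 at 1496 and 1579 FPKM, summed to 2599 and 2838 FPKM, with 2 lower (28.6%) and 5 higher. The 5 endothelial and blood markers that were found summed to 2.40 and 2.41 FPKM, and KDR, with 1.21 FPKM in live cells, was the highest.

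The precision of the values differed by gene and library. From the steps of 1 fragment and the longest annotated transcript, which overstates the count where shorter transcripts dominate, the 42 genes had about 922 (CCNE2) to 37721 (MCM4) fragments in the live library and 451 (CCNE2) to 38969 (CENPF) in the processed library. The distance from an FPKM to its bounds was 1.28% to 15.1% of the FPKM in live cells (median 3.51%) and 1.14% to 24.4% in processed cells (median 4.04%). It was wider in processed cells for 34 of the 42 genes, and the share over all genes was not computed. The processed library was also the shallower, at about 93100000 against 99800000 fragments, and the part of depth was not tested. For TOP2A the distance was 2.19% in live and 5.79% in processed cells, although about 29403 fragments would give 1.17% at 2 SD from counting alone. CENPA widened from 5.002% to 11.5%, CENPE from 5.06% to 11.3% and KIF23 from 4.08% to 7.83%. Genes with wide bounds also tended to differ more, and the Pearson r between this distance in live cells and the absolute log2 ratio was 0.53 over the 42 genes (Spearman rho 0.63). These points share both libraries. The log2 ratio itself hardly followed the length of the longest transcript (r = -0.04, rho = -0.09) or its GC content (r = 0.16, rho = 0.12) over the same genes. With log2 live FPKM it had r = 0.02 and rho = 0.27, and r = 0.33 and rho = 0.36 without CCND3. Live FPKM enters both sides of that comparison. In 14 of the 42 genes another gene that reached 1 FPKM overlapped in position, and the 28 genes without such an overlap had a median log2 ratio of -0.14.

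**Figure D5:**
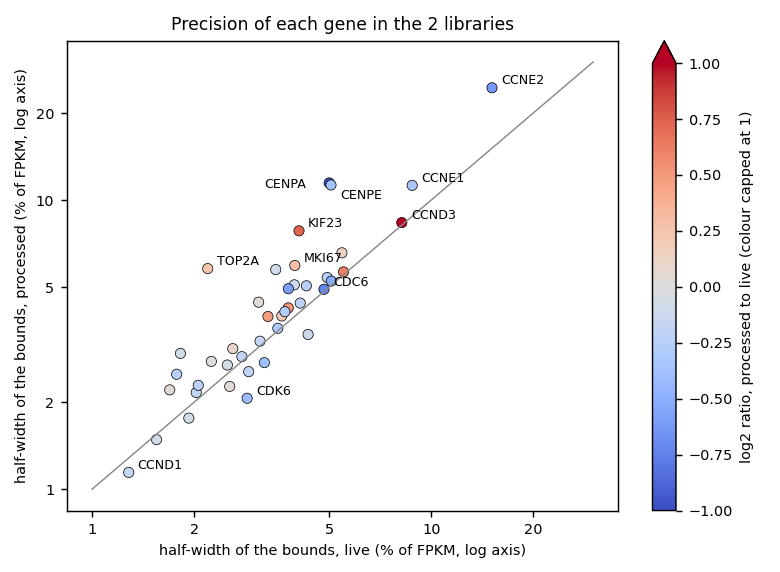
Distance from FPKM to its deposited bounds as a percentage of FPKM (log axes) for the 42 genes, live library across and processed library upwards, coloured by log2 ratio, with the line of equality. Most points (34 of 42) lie above the line, TOP2A, CENPA, CENPE and KIF23 far above it, and CCNE2 has the widest bounds in both libraries. The share of all genes above the line was not computed.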

How the data were processed

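Poly-A RNA of 1 live and 1 processed sample was sequenced as paired reads of 80 nt. Reads were aligned by the authors to GRCh37/hg19 with STAR 2.2.0c guided by GENCODE annotations, and FPKM values with bounds were deposited per gene (Cufflinks 2.0.2 in the submitters' processing notes, Cuffdiff in the study's methods). FPKM is already scaled for length and depth, so gains of some genes lower others, and reads shared by overlapping genes or transcripts are divided by estimation.

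From these values, rows were joined by Ensembl identifier in Python 3.11.15 with numpy 2.4.6, pandas 2.3.3 and scipy 1.17.1, and figures were drawn with matplotlib 3.10.9. Log2 ratios used a pseudocount of 1 FPKM, and all 42 genes passed the filter of 1 FPKM in a library. No test was made, as each condition has 1 library. Counting past 2-fold was checked on simulated data, in which 200 well expressed genes were changed 4-fold with counting noise alone. The check did not cover 1.5-fold or low genes. Depth came from low FPKM of genes with 1 annotated transcript over 300 nt, multiplied by the transcript length less 170 nt. Transcript length, transcript number, GC content and strand came from GENCODE release 44 on GRCh37, which held 94.5% of gene identifiers. The authors' alignment used an earlier GENCODE release, so these properties need not match the annotation behind the FPKM. CENPU was found under an older symbol by its identifier, and CENPW and PECAM1 were not analysed here.

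The genes and lists were chosen with earlier results of these data known. Values are given in full for genes past 1.5-fold, the 6 highest and 6 lowest by live FPKM, MKI67, TOP2A, PCNA, CDK1 and the extremes of each role group, and of further cell cycle genes for the CDK inhibitors and the 5 highest and 5 lowest ratios. Of the markers, the highest gene of each list and INS, GCG, SST, POU5F1 and NANOG are named. Other markers were named after their values were seen. The grouping into G1 and S phase or mitosis and the partner ratios were made after values were seen. Alternatives covered pseudocount, filter, status and scaling.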

Additional observations from a re-analysis of the deposited data

How the results depend on the processing

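Each condition has 1 library, so the spread within a condition is unknown. No paired analysis was possible because each condition has 1 library, and no library could be left out. Under the alternatives of pseudocount, filter, status and scaling, the median log2 ratio lay between -0.16 and -0.05 for the 42 genes. It lay between -0.12 and -0.02 for the other cell cycle genes. Under each alternative 7 of 9 role groups had a median below 0, but so did the 17326 genes as deposited (-0.09). After division by the median ratio, the medians of the fork group (-0.000974) and of the mitotic kinase, checkpoint and APC/C group (-0.00629) were close to 0. With a pseudocount of 0.1 FPKM or none, 1 gene was lower past 2-fold. Division of processed FPKM by its median ratio to live FPKM gave 5 higher and 2 lower genes past 1.5-fold (15.6% and 12.8% of all genes), 14 higher and 17 lower genes with separate bounds (35.0% and 35.4% of all genes) and a median processed level of 32.1 FPKM in place of 29.9. The log2 ratio then changed sign for KIF11 (0.0202), RRM1 (0.098), MCM3 (0.0256) and MCM7 (0.00941). This scaling adds 0.10 to the log2 of every processed value, which is the cause by construction. Folds taken from the nearest bounds, an alternative chosen after seeing the data, left 1 higher gene (CCND3) and 2 lower genes (CENPA and CDC6) past 1.5-fold. KIF23, AURKB, E2F1 and CCNE2 were then no longer past it. The share of all genes under this alternative is not given here. The shares of all genes past 2-fold, 6.57% higher and 6.19% lower, were 3.15% and 3.53% among protein-coding genes and 4.2% and 2.98% among genes that reached 5 FPKM. Past 1.5-fold, 8.41% of protein-coding genes were higher, against 13.1% of all genes. Bounds were widest for CCNE2 in both libraries, beyond its counting error of 6.59% and 9.42% at 2 SD, and the cause was not tested.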
